A study of Mus musculus with 80 samples.

Results

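The 6 genes described here encode secreted or membrane-bound immune mediators that myeloid cells make when they are activated: Il1a, Il1b, Tnf, Il6, Il10 and Tnfsf18. They were taken by gene symbol and not by a cutoff on measured levels, but with earlier results of these data known. Each was found as a single row in both count tables, 6 of 15919 genes in the sort comparison and 6 of 16000 genes in the cell preparation comparison. In mm10 Il10 (Entrez 16153) lies at chr1:131019845-131024970 and Tnfsf18 (Entrez 240873) at chr1:161494657-161505290, both on the plus strand. Il1a (Entrez 16175, chr2:129299610-129309972) and Il1b (Entrez 16176, chr2:129364580-129371120) are neighbors on the minus strand. Il6 (Entrez 16193) lies at chr5:30013161-30019968 on the plus strand and Tnf (Entrez 21926) at chr17:35199391-35201996 on the minus strand.

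Il1a and Il1b encode the IL-1 cytokines, which act through the same receptor. IL-1α is active as made and IL-1β is cut by caspase-1 in the inflammasome. Tnf encodes tumor necrosis factor and Tnfsf18 the ligand of the T-cell receptor GITR. Il6 encodes a cytokine that signals through gp130 and STAT3, and Il10 the cytokine that restrains macrophage activation, also through STAT3. Several of these genes are induced within minutes to hours in macrophages and microglia, from promoters bound by NF-κB and AP-1, and their mRNAs are short-lived because proteins such as tristetraprolin (Zfp36) bind AU-rich elements near the 3′ end.

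All 80 libraries came from brains of Cx3cr1(Jung)-cre/Ert2+;NuTRAP+ mice, called Cx3cr1-NuTRAP, of both sexes. The mice were given 100 mg/kg tamoxifen by daily intraperitoneal injection at about 3 months of age, which turns on an eGFP-tagged ribosomal protein in Cx3cr1+ cells. Translating ribosome affinity purification (TRAP) pulls these ribosomes down with their mRNA (TRAP) from the lysate (Input), so each preparation gave 1 Input and 1 TRAP library. In the sort comparison (48 libraries of 14 mice) brain was homogenized directly (Tissue, n = 4), dissociated with enzymes at warm temperature (Cell, n = 4, the same mice), or dissociated and then sorted by CD11b magnetic beads (autoMACS, n = 4), a cartridge cell sorter (Tyto, n = 5), both in series (autoMACS-to-Tyto, n = 3) or a flow cytometric sorter (FACSAria, n = 4), together called Sort. In the cell preparation comparison (32 libraries of 12 mice, n = 4 each) Tissue was set beside Cell (−) Inhibitors, Cell (+) Inhibitors, in which actinomycin D, triptolide and anisomycin, blockers of transcription and translation, were present during dissociation, and Dounce, a mechanical dissociation kept cold throughout and followed by Percoll.

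The 2 Cell groups of the preparation comparison were made from the same 4 brains, Dounce from other mice, and the Tissue libraries were second libraries of the 4 mice that had given Tissue and Cell in the sort comparison. The Tissue groups of the 2 comparisons are therefore not independent, and in the preparation comparison Tissue, Cell and Dounce differ in their mice as well as in their handling. Some mice gave more than 1 sorted library. The Cx3cr1 promoter is also active in border macrophages and in blood monocytes, which lose the label as they are replaced. Each Dounce sample used a whole brain, and the study's text describes its RNA as the least intact.

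Total expected counts ranged from 7129464 to 20168116 per library in the sort comparison and from 2471448 to 14650287 in the preparation comparison, where Dounce-TRAP was the shallowest group (2471448 to 4724538). All 20 microglial markers were detected in each group. Their summed level was 493 to 728 CPM (expected counts scaled to a common library size over TRAP and Input together) in Tissue-Input, 12164 to 14872 in Tissue-TRAP, 7837 to 10146 in Cell-Input, 59572 to 65054 in Cell-TRAP and 71941 to 85086 in the sorted TRAP libraries, so microglial RNA made up a different share of each kind of library. Tissue-TRAP also held RNA of other cells. Neuronal markers summed to 5587 to 6377 CPM in Tissue-TRAP, 5888 to 6154 in Tissue-Input and 125 to 344 in Cell-TRAP. Astrocyte markers summed to 3456 to 5320, 3190 to 3424 and 1689 to 1920 CPM in the same groups. A level in Tissue-TRAP is therefore not that of microglial ribosomes alone. In bulk samples such as these, a different number of cells of a type and a different amount of RNA per cell cannot be told apart.

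Promoter and 3′ end sequences are shown because cytokine mRNA is controlled both at transcription, which actinomycin D and triptolide block, and at decay. The 250 bases before the RefSeq start site (GRCm38.p6) were found for 5 of the 6 genes, and 3 are printed 5′ to 3′ on the strand of the gene, with capitals for matches to the NF-κB consensus or to the AP-1 letters TGANTCA, both strands searched. Il6 is shown at chr5:30012864-30013113 (+), Il1a at chr2:129309973-129310222 (−) and Tnf at chr17:35202008-35202257 (−).
Il6: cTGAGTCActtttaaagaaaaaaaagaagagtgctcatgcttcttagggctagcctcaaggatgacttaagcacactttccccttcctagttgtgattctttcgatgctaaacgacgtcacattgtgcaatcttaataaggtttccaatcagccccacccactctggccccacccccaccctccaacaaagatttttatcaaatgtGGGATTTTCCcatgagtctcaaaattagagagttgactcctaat
Il1a: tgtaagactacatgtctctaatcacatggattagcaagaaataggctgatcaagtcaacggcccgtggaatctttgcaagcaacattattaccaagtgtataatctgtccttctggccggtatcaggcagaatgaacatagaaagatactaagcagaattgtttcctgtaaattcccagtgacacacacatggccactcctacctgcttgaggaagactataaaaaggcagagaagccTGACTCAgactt
Tnf: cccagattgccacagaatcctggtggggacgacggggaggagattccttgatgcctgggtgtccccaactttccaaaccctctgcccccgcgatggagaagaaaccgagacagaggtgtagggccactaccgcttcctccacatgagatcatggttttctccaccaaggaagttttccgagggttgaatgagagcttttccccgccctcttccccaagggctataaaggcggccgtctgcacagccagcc
Il6 held an AP-1 match and the single NF-κB consensus match of the 5, starting 44 bases before the start site, Il1a held an AP-1 match, and Tnf, Il1b and Tnfsf18 held neither. The cAMP response element TGACGTCA was in none of the 5 and TATAAA in each but Il6. Over 27025 promoters of the same length, 7.01% held the NF-κB consensus, 6.87% AP-1, 1.62% TGACGTCA and 12.97% TATAAA, and a missing match says only that these letters are not in this window.

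In the 3′ UTR of Tnf (764 bases, GENCODE M21) a stretch of 30 bases held 4 overlapping copies of the nonamer TTATTTATT, the core of a classical AU-rich element, shown in capitals.
Tnf 3′ site: ttaTTATTTATTATTTATTTATTATTTATT
The Tnf 3′ UTR held 5 such nonamers and 8 copies of ATTTA. The other genes held no nonamer and 3 (Il1a), 4 (Il1b), 6 (Il6), 6 (Il10) and 6 (Tnfsf18) copies of ATTTA. Among the 3′ ends of 19852 genes 58.7% held ATTTA, 6.3% the nonamer and 0.44% 3 or more nonamers.

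Cytokine levels below are in CPM scaled within TRAP or within Input, whereas tests of TRAP against Input scaled both together. The first question was how much of these mRNAs was in the TRAP of brain that had not been dissociated. In Tissue-TRAP Il1a was the most abundant of the 6, at 45.5 to 106 counts per library, and no other cytokine passed 12 counts in a library. Il1a was at 2.82, 2.79, 5.20 and 5.08 CPM in replicates 1 to 4, Il6 at 0.737, 0.372, 0.294 and 0.335, Il1b at 0.368, 0.310, 0.294 and 0.558 and Tnf at 0.123, 0.310, 0.196 and 0.223. Il10 was represented by 1 count in 1 of 4 libraries and Tnfsf18 by no count. Per kilobase of transcript the mean levels were 2.01 CPM for Il1a, 0.381 for Il6, 0.282 for Il1b and 0.130 for Tnf, with Il1a above the others in each library, Il6 and Il1b overlapping, and Tnf below both. The second set of Tissue-TRAP libraries, from the same mice, gave Il1a at 3.697, 2.41, 5.88 and 5.57 CPM, no Il10 count, and 6 Tnfsf18 counts spread over 2 libraries.

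The pull-down raised 2 of the 6 genes over the homogenate of the same Tissue samples, Il1a by 3.43 on the log2 scale (SE 0.474, FDR 9.5e-08) and Il6 by 3.05 (SE 0.631, FDR 0.000139), where 11.1% of the 15825 genes tested were called. Throughout, a gene was called at a false discovery rate (FDR) under 0.1 with a fold change over 2 in edgeR's quasi-likelihood test. Il1b, at 0.91 (SE 1.30), and Tnf, at 0.76 (SE 1.505), were not called, although limma on the authors' log2 values called Il1b at 1.22 (FDR 0.0693). When the libraries were scaled to those 20 markers in place of all genes, so that a value gives the level relative to microglial RNA, Il1a was lower in TRAP by 1.16 (FDR 0.0324), Il1b by 3.63 (FDR 0.00457) and Tnf by 3.76 (FDR 0.0151), and Il6, at −1.31 (FDR 0.133), was not called. This scaling lowered the members in TRAP by a median of 4.44, and the median of all genes was 0.03 before it. Lower values on it are therefore not particular to these genes. Here and below, the share of all genes called on the marker scale is not given.

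After dissociation the mRNA of all 6 cytokines was higher in TRAP. Each was higher in all 4 Cell-TRAP libraries than in any Tissue-TRAP library. All 6 were called, all upward, where 54.3% of 14953 genes were called in either direction and 25.1% upward. Here and below, overlap between groups was examined for these 6 genes only, so its share over all genes is not given. It describes their levels and does not set them apart from other genes. Il1a rose to 247, 139, 133 and 138 CPM in Cell-TRAP, a log2 fold change of 5.34 (SE 0.328, FDR 1.22e-13). Il1b rose to 69.5, 26.5, 17.04 and 27.9 CPM, a log2 fold change of 6.49 (SE 0.626, FDR 8.07e-10). Replicate 1 was the highest Cell-TRAP library for both IL-1 genes.

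Tnf showed the largest fold change of the 4 genes with counts in each Tissue-TRAP library. It stood at 207, 72.6, 74.4 and 66.0 CPM in Cell-TRAP, 476-fold above Tissue-TRAP (log2 8.90, SE 0.565, FDR 2.48e-13). Tnfsf18, with no count in Tissue-TRAP, was at 3.28, 1.67, 1.95 and 2.11 CPM, at least 52.9-fold higher when Tissue-TRAP was set to a floor of 3 counts over the group. Replicate 1 again held the highest level of both TNF family ligands. Markers of border macrophages, which are also Cx3cr1+, moved in the same direction. All 8 were detected in each group, and they summed to 2483 CPM in Cell-TRAP replicate 1, 969 to 1086 CPM in the other 3 Cell-TRAP libraries and 188 to 246 CPM in Tissue-TRAP. Without replicate 1 all 6 cytokines were still called, and the part of these cells in the rise from Tissue to Cell was not tested.

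Il6 changed least of the 6. Its Cell-TRAP levels of 5.56, 7.40, 7.40 and 8.03 CPM were close to each other, with replicate 1 the lowest, and lay 16.4-fold above Tissue-TRAP (log2 4.03, SE 0.362, FDR 2.07e-10). Il10 was at 7.85, 2.63, 3.04 and 2.65 CPM, and its 240 counts against 1 count in Tissue-TRAP gave a ratio of 280 with a 95% counting interval of 49.8 to 11108. Per kilobase the order in Cell-TRAP was Il1a (83.2 CPM), Tnf (64.01), Il1b (25.99), Il6 (6.22), Il10 (3.09) and Tnfsf18 (1.09). Among neighbors in that order Il1a overlapped with Tnf, Tnf with Il1b and Il6 with Il10, and the other neighbors did not overlap.

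**Figure D1:**
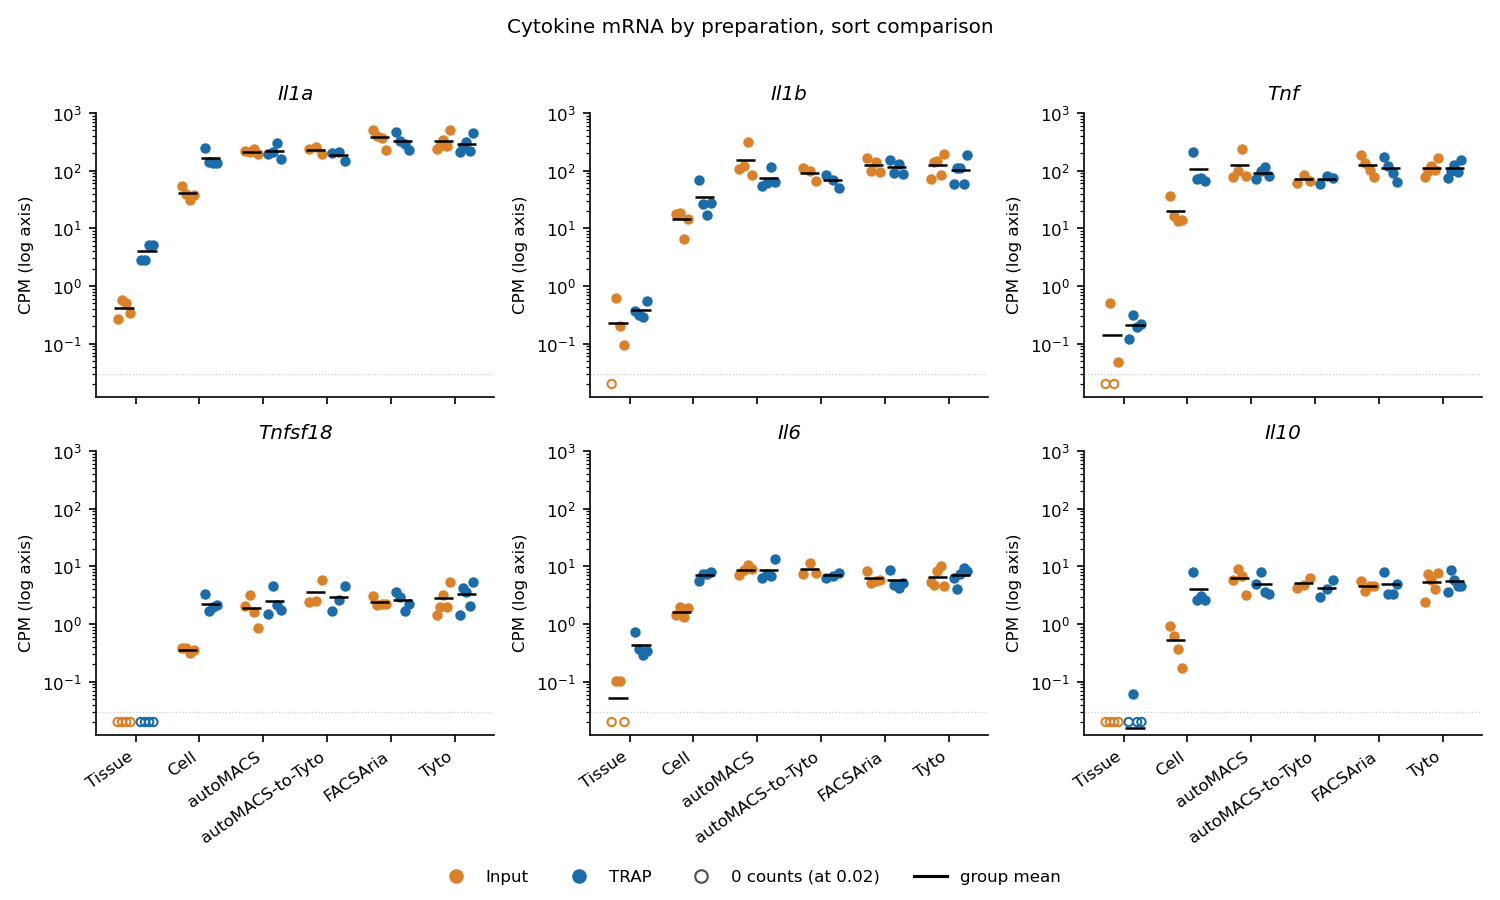
Level of each of the 6 cytokine genes in the 48 libraries of the sort comparison, in CPM scaled within TRAP or Input on a log axis, 1 panel per gene, by preparation, with Input in orange, TRAP in blue and a black line at the group mean. Libraries with no count are drawn at 0.02. The 4 Cell-TRAP points and the 16 sorted TRAP points lie above all 4 Tissue-TRAP points in each panel, for Il1a at 133 or more against at most 5.20 CPM.

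The increase was larger than the rise of microglial RNA as a whole in these libraries. Scaled to the 20 microglial markers, all 6 genes were still called in Cell-TRAP against Tissue-TRAP, with log2 fold changes of 3.03 for Il1a, 4.20 for Il1b, 6.63 for Tnf and 1.69 for Il6, a median shift of 2.28 from the values above. The share of all genes called on this scale is not given, and their median before the shift was −0.01. In the homogenates, Cell-Input against Tissue-Input, 6 of 6 genes were called upward (46% of 15750 genes called), with Il1a at 30.4 to 53.4 CPM against 0.267 to 0.57, Il1b at 6.49 to 18.4 against 0 to 0.619, Tnf at 13.3 to 36.1 against 0 to 0.516 and Il6 at 1.33 to 1.95 against 0 to 0.103. No group overlapped. On the microglial marker scale, Input Il1a was higher by 2.38, Il1b by 1.79 and Tnf by 3.03, and Il6, at 0.77 (FDR 0.3), was no longer called.

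**Figure D2:**
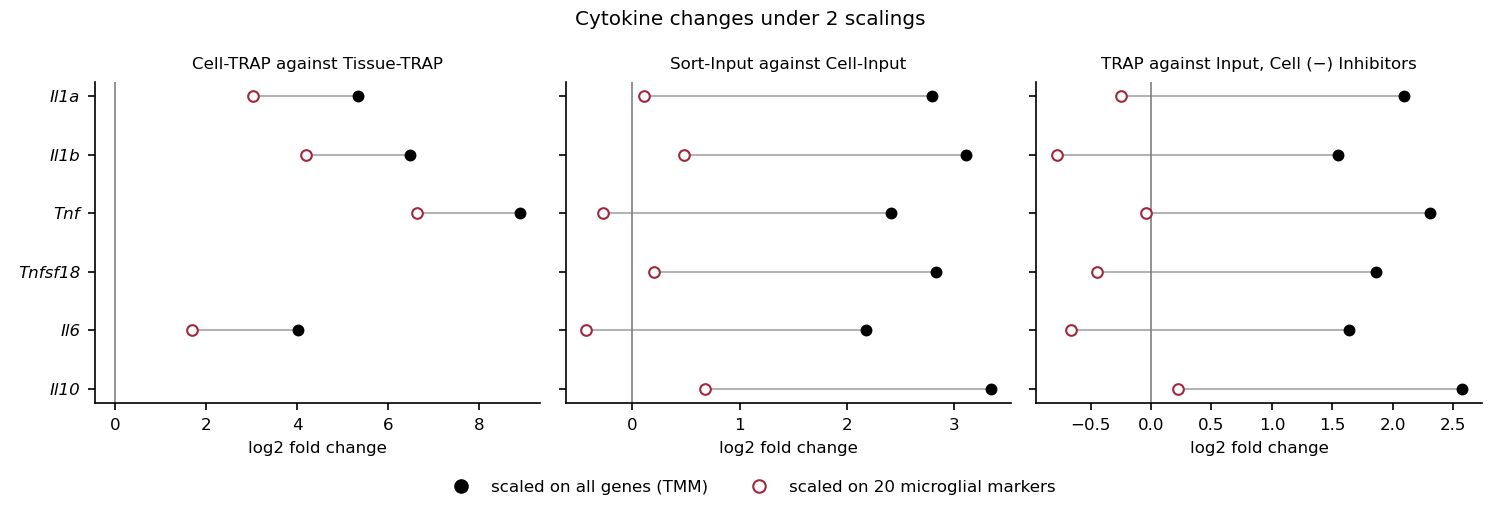
Log2 fold changes of the cytokine genes for Cell-TRAP against Tissue-TRAP, Sort-Input against Cell-Input and TRAP against Input in Cell (−) Inhibitors, with all genes used for scaling (black) and with the 20 microglial markers used (red open). The first panel leaves out Il10 and Tnfsf18, which had few or no counts in Tissue-TRAP. Its values stay above 0, from 1.69 upward, while those of the second fall from between 2.18 and 3.34 to between −0.43 and 0.68.

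Sorted cells kept all 6 cytokines far above undissociated tissue, and in TRAP Il1b alone was called between sorted and unsorted cells. In Sort-TRAP against Tissue-TRAP 6 of 6 genes were called (62.8% of genes called), with log2 fold changes of 5.94 (SE 0.317) for Il1a, 7.82 (SE 0.576) for Il1b, 8.75 (SE 0.540) for Tnf and 4.01 (SE 0.330) for Il6, a ratio of 343 for Il10 (61.5 to 13561) and of at least 66.5 for Tnfsf18. In Sort-TRAP against Cell-TRAP, which came from different mice, 1 of 6 genes was called where 24.4% of all genes were. Il1b was at 51.02, 84.9 and 184 CPM (lowest, median and highest of 16 sorted TRAP libraries), 1.33 above Cell-TRAP on the log2 scale (SE 0.309, FDR 0.000795), and the ranges overlapped only through replicate 1 of Cell-TRAP. Scaled to microglial markers, the difference of Il1b was 1.01 (FDR 0.00925).

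The other 5 genes overlapped between sorted and unsorted TRAP libraries. Il1a was at 150, 224 and 469 CPM after sorting, a log2 difference of 0.60 (SE 0.207, FDR 0.0171) that stayed under 2-fold. For Tnf (57.6, 92.6 and 170 CPM) the difference was −0.15 with a 95% interval of −0.64 to 0.34, for Il6 (4.05, 6.90 and 13.6 CPM) −0.02 with −0.47 to 0.42, for Il10 (3.00, 4.59 and 8.83 CPM) 0.26 with −0.38 to 0.91 and for Tnfsf18 (1.41, 2.40 and 5.43 CPM) 0.33 with −0.41 to 1.07. Between the 4 sort methods no member was called by edgeR in TRAP (4.17% of genes called) or in Input (7.42%). At an unadjusted p under 0.05 there was 1 gene in each, Il1a, with FDR 0.0765 in TRAP and 0.0384 in Input, and the highest and lowest sort differed by less than 2-fold. The 16 sorted libraries of each fraction came from 10 mice, 6 of which gave 2, which this test does not take into account. In limma with a correlation between libraries of the same mouse (0.096 in TRAP and 0.0818 in Input), again no member was called between the sorts and none had an unadjusted p under 0.05, with Il1a at an FDR of 0.217 in TRAP and 0.27 in Input. Limma without that correlation also gave none of either, with Il1a at an FDR of 0.185 in TRAP and 0.246 in Input. The difference from edgeR was thus already present without the correlation. In Input Il1a reached 225 to 511 CPM after FACSAria and 195 to 233 CPM after autoMACS.

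In the Input of the sorted cells all 6 genes were higher than in Cell-Input (51.8% of genes called) by 2.79 for Il1a, 3.11 for Il1b, 2.41 for Tnf, 2.18 for Il6, 3.34 for Il10 and 2.83 for Tnfsf18. Relative to the 20 microglial markers, themselves 43402 to 74026 CPM in the sorted Input, none of the 6 was called, and the same differences were 0.11, 0.48, −0.27, −0.43, 0.68 and 0.20. Replicate 3 of autoMACS-Input stood apart, with Il1b at 314 CPM and Tnf at 235 CPM while no other sorted Input library passed 192 and 185 CPM. That library had the lowest microglial marker sum of the sorted Input libraries and 388 CPM of monocyte and neutrophil markers, the highest of the autoMACS-Input libraries, whose part in its cytokine levels was not tested.

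The pull-down raised all 6 genes over Input in unsorted cells, and none was called after sorting. In Cell, 6 of 6 were higher in TRAP (47.6% of genes called), in all 4 mice for each gene, from 1.59 (SE 0.418) for Il1b to 3.23 (SE 0.474) for Il10 on the log2 scale, and in limma Il1b, at 0.99 (FDR 0.0718), stayed just under 2-fold. Relative to the microglial markers this became −1.20 for Il1b (FDR 0.0152) and lay between −0.50 and 0.46 for the others, none called. In Sort, edgeR, DESeq2 and limma each called 0 of 6 (18.9% of genes called by edgeR), with log2 values from −0.41 for Il1b to 0.20 for Tnfsf18, and Il1b alone had an unadjusted p under 0.05 (FDR 0.0727). With the sample as a block, the call count over all genes fell from 2994 to 1409 and Il1b was 0.29 lower in TRAP (FDR 0.00524). The change from Tissue to Cell was smaller in TRAP than in Input for Il1a by 1.12 (SE 0.576, FDR 0.092), the 1 member called in that interaction (35.3% of genes called), a call that was lost in 9 of 16 fits that left out a library. On the marker scale it was 0.66 in the other direction, and Il1b and Tnf gained more in TRAP than in Input by 2.44 and 3.62.

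The preparation comparison held a second set of dissociated brains. All 6 genes were again higher in all 4 Cell-TRAP (−) Inhibitors libraries than in any Tissue-TRAP library, and 6 of 6 were called (53.2% of 14723 genes). Il1a was at 136, 151, 234 and 232 CPM (log2 5.41, SE 0.274), Il1b at 50.8, 39.2, 99.6 and 196 CPM (7.32, SE 0.649) and Tnf at 76.7, 57.2, 107 and 106 CPM (8.74, SE 0.626). Il1b spread most over the 4 mice. Il6 was at 6.73, 6.41, 6.11 and 3.63 CPM against 0.516, 0.419, 1.72 and 0.359 in Tissue-TRAP (2.92, SE 0.482), and relative to the microglial markers its difference was 0.69 (FDR 0.182), the only one of the 6 no longer called. Il10 was at 4.82, 5.06, 7.53 and 4.04 CPM, at least 74.9-fold above Tissue-TRAP, and Tnfsf18 at 2.98, 0.949, 3.35 and 4.78 CPM (4.27, SE 0.941). Border macrophage markers summed to 767 to 1717 CPM in these libraries and to 221 to 313 CPM in Tissue-TRAP, and their part in the rise was not tested.

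**Figure D3:**
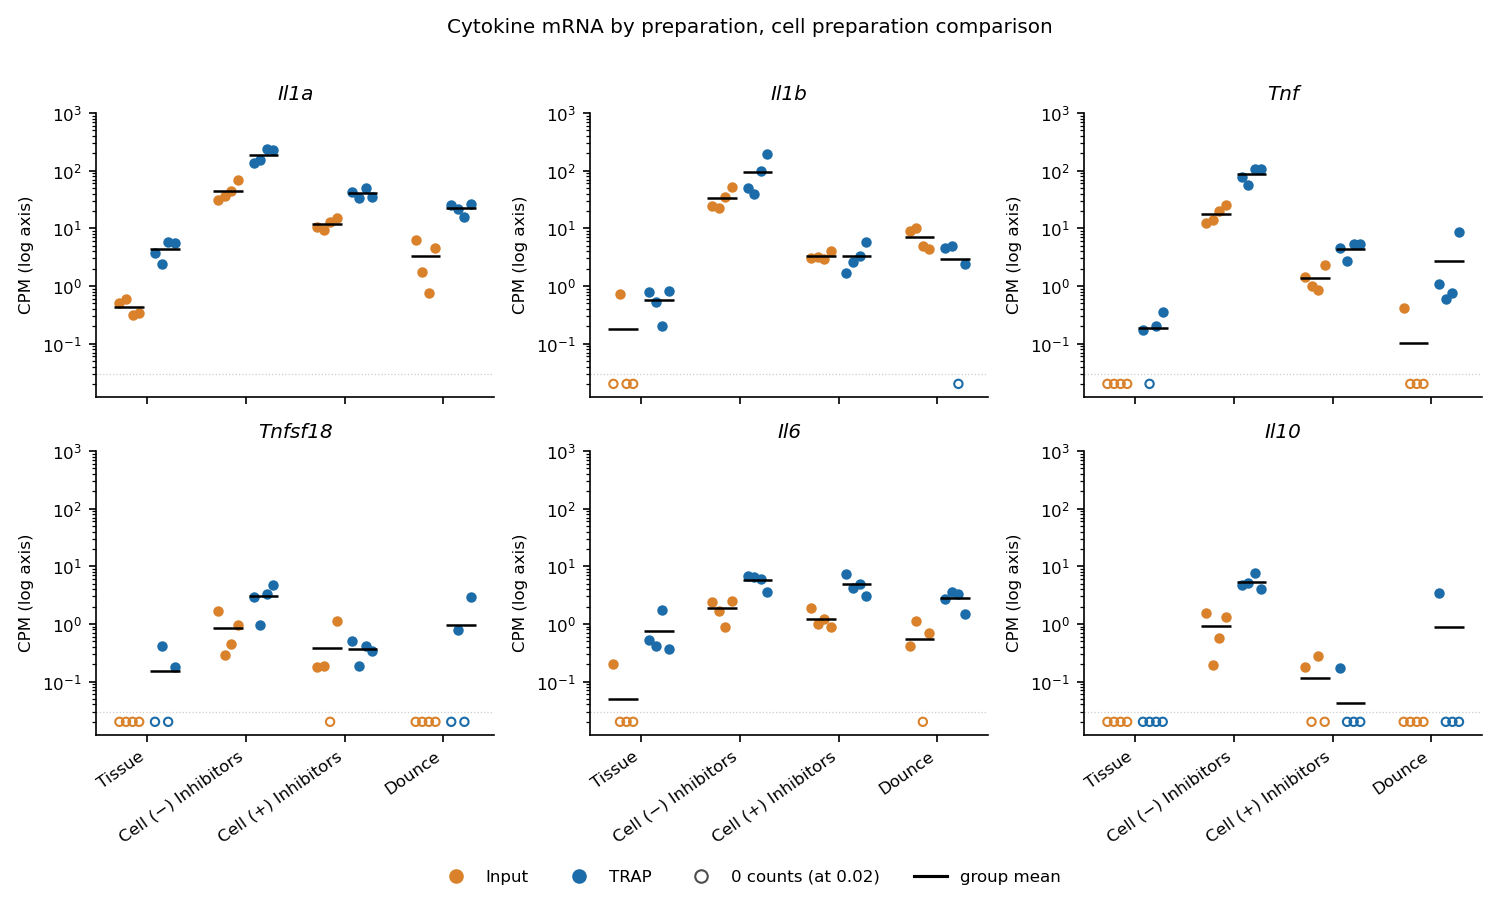
Level of each cytokine gene in the 32 libraries of the cell preparation comparison, in CPM scaled within TRAP or Input on a log axis, with Input in orange, TRAP in blue, a black line at the group mean and libraries with no count at 0.02. For Il1b the Cell (−) Inhibitors TRAP points (39.2 to 196) stand far above those of Cell (+) Inhibitors (1.70 to 5.87) and Dounce (0 to 4.98), while for Il6 the 2 Cell groups overlap.

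Transcription and translation inhibitors present during dissociation lowered 5 of the 6 cytokines in TRAP, and Il6 was the exception. The 5 called genes stand against 0.638% of all genes, 94 of 14723, of which 93 were lower with the inhibitors. Il1b fell to 1.70, 2.58, 3.29 and 5.87 CPM (log2 −4.83, SE 0.528, FDR 1.11e-05). Tnf fell to 4.51, 2.67, 5.35 and 5.26 CPM (−4.28, SE 0.431, FDR 3.65e-06). Il1a fell less, to 42.3, 33.8, 50.8 and 34.3 CPM (−2.22, SE 0.226, FDR 4.11e-06), and the 95% interval of its change, −2.70 to −1.75, lay above those of Il1b (−5.94 to −3.73) and Tnf (−5.18 to −3.37). The groups did not overlap for these 3 genes.

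Il10 was nearly lost. The 4 Cell-TRAP (+) Inhibitors libraries held 2 counts in all, in replicate 1, against 271 counts without inhibitors, 124-fold lower with a counting interval of 33.9 to 1025. Tnfsf18 was at 0.511, 0.184, 0.411 and 0.345 CPM, below all 4 uninhibited libraries, with a log2 change of −3.00 (SE 0.823) whose FDR of 0.0917 lay just inside the threshold. Leaving out any of 7 of the 8 libraries put it outside, at an FDR of 0.159 to 0.326. It was also outside without the filter on low counts (FDR 0.124), in limma (FDR 0.218) and on the microglial marker scale (FDR 0.116).

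Il6 was at 7.41, 4.23, 4.85 and 3.02 CPM with the inhibitors, overlapping the levels without them on both sides. Its log2 difference was −0.23 (SE 0.415, FDR 0.981) with a 95% interval of −1.10 to 0.64, so a fall like that of Il1a, Il1b or Tnf lay outside the interval. The counts of Il6 to Tnf within a library showed the same contrast, at 0.0344 to 0.112 in Cell-TRAP (−) Inhibitors and 0.574 to 1.64 in Cell-TRAP (+) Inhibitors. Because both groups came from the same brains, the fit was also made with the mouse as a block, which raised the number of called genes from 94 to 150, kept 5 cytokines called and gave Tnfsf18 an FDR of 0.00062 and Il6 a log2 difference of −0.24. DESeq2's Wald test called 3 of the 6 and gave no adjusted p for Il10 and Tnfsf18. The summed level of the microglial markers was 72007 to 81877 CPM without and 77481 to 81840 CPM with the inhibitors, the border macrophage markers were at 767 to 1717 and 936 to 1268 CPM, and the monocyte and neutrophil markers were at 14.8 to 19.9 and 12.9 to 19.4 CPM. Relative to the microglial markers, Il6 was not called above Tissue-TRAP without the inhibitors (0.69, FDR 0.182) or with them (0.36, FDR 0.477). On that scale Il6 thus had no called rise that the inhibitors could lower.

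**Figure D4:**
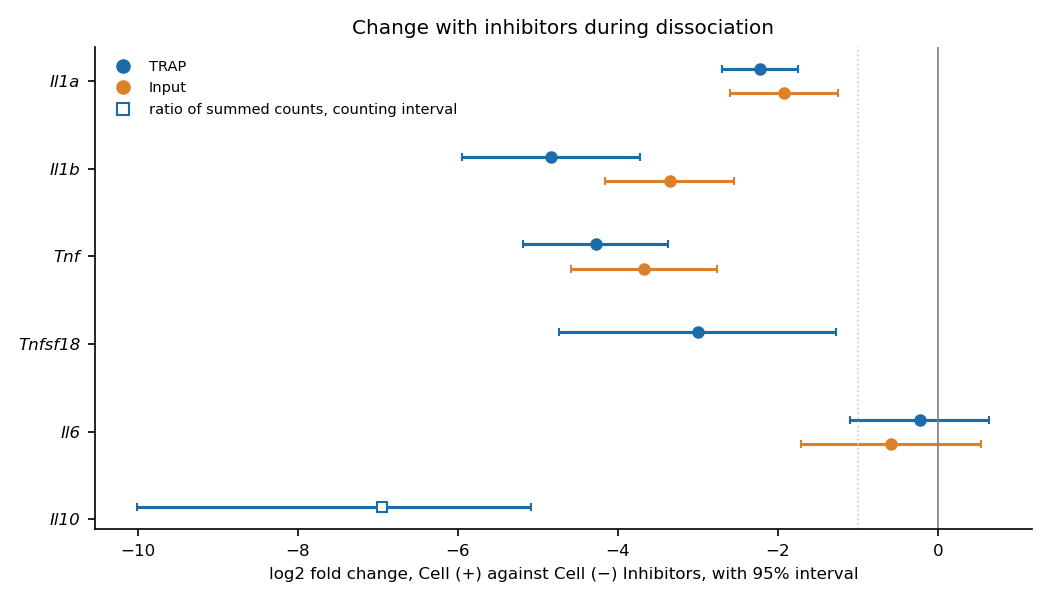
Log2 fold change of the cytokine genes in Cell (+) against Cell (−) Inhibitors, with 95% intervals, for TRAP and for Input where tested, and for Il10 the ratio of the summed counts as a square. The dotted line marks a 2-fold decrease, which the intervals of Il1a, Il1b and Tnf clear, and the interval of Il6 in TRAP, −1.10 to 0.64, spans 0.

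Il1a, Il1b and Tnf were also lower with the inhibitors in the Input. Of the 4 members with enough counts to test, 3 were called, all lower, where 0.311% of 15753 genes were called. Il1a went from 30.4, 36.1, 45.1 and 68.8 to 10.4, 9.53, 12.7 and 14.8 CPM (−1.92, SE 0.323, FDR 0.00356), a call that limma on the authors' log2 values did not make (−1.87, FDR 0.499). Il1b went from 24.8, 22.3, 34.6 and 52.7 to 3.00, 3.21, 2.88 and 4.03 CPM (−3.35, SE 0.386, FDR 3e-05). Tnf went from 12.6, 13.7, 20.2 and 24.9 to 1.41, 1.01, 0.836 and 2.28 CPM (−3.67, SE 0.428, FDR 0.000123). None of these 3 overlapped, and Il6 did, at 0.895 to 2.48 against 0.876 to 1.86 CPM (−0.59, SE 0.537, FDR 1). The change with inhibitors did not pass the threshold for a difference between TRAP and Input for any of the 6 in edgeR (0.145% of 15894 genes called), and 1 gene, Il1b, had an unadjusted p under 0.05, at −1.497 (FDR 0.888).

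The inhibitors did not bring the libraries to the level of undissociated tissue under the scaling to all genes. In Cell-TRAP (+) Inhibitors against Tissue-TRAP 4 of 6 genes were called (52.8% of genes called), all higher, with log2 fold changes of 3.19 (SE 0.261) for Il1a, 2.49 (SE 0.713) for Il1b, 4.47 (SE 0.706) for Tnf and 2.69 (SE 0.482) for Il6, and no overlap. Tnfsf18, at 1.26 (SE 1.06, FDR 0.29), was not called, and Il10 was at or under 3 counts in both groups. With marker scaling 1 gene, Tnf, was still called at 2.17 (FDR 0.0168), and the differences were 0.84 for Il1a, 0.14 for Il1b and 0.36 for Il6. These libraries came from different mice.

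After cold mechanical dissociation Il1a, Il1b and Tnf were far lower than after warm dissociation, and Il6 and Tnfsf18 differed less clearly. In Dounce-TRAP against Cell-TRAP (−) Inhibitors 5 of 6 genes were called lower (28.7% of all genes called, 8.04% lower). Il1a was at 25.3, 21.3, 15.6 and 26.8 CPM (−3.07, SE 0.247), Il1b at 4.53, 4.98, 0 and 2.38 CPM (−4.88, SE 0.583) and Tnf at 1.07, 0.598, 0.745 and 8.62 CPM (−5.03, SE 0.506). Replicate 4 stood apart for Tnf with 29 counts against 2 to 4 in the others. Il6 was at 2.66, 3.59, 3.35 and 1.49 CPM (−1.03, SE 0.462, FDR 0.0682), a call lost in 5 of the 8 fits without 1 library and on the microglial marker scale (−0.78, FDR 0.181). Tnfsf18 was at 0, 0.797, 0 and 2.97 CPM (−1.65, SE 0.847, FDR 0.11) and was not called by edgeR on all libraries. It was called in limma (−2.74, FDR 0.021), without Dounce-TRAP replicate 4 (−3.13, FDR 0.0124) and without Cell-TRAP (−) Inhibitors replicate 2 (−1.95, FDR 0.0707). Il10 was seen in replicate 1 alone, 13 counts or 3.46 CPM, and in no other Dounce library (−2.58, SE 0.914, FDR 0.0269), and DESeq2 did not call it (FDR 0.283). Other cell types differed between these preparations too. Endothelial markers summed to 55.5 to 76.4 CPM in Dounce-TRAP against 549 to 1258 in Cell-TRAP (−) Inhibitors, neuronal markers to 1061 to 1855 against 88.1 to 202 and oligodendrocyte markers to 1358 to 2191 against 343 to 1240, while border macrophage markers overlapped at 867 to 1930 against 767 to 1717, and their part in the cytokine differences was not tested.

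Against Tissue-TRAP all 6 genes were called higher in Dounce-TRAP (50.3% of genes called): Il1a by 2.34 (SE 0.275), Il1b by 2.44 (SE 0.83), Tnf by 3.71 (SE 0.876), Il6 by 1.89 (SE 0.522) and Tnfsf18 by 2.61 (SE 1.097). Only Il1a and Tnf did not overlap with Tissue-TRAP. In limma Il1b (1.57, FDR 0.172), Il10 and Tnfsf18 were not called. Without replicate 4 Tnfsf18 was at 1.14 (FDR 0.44), and the Il10 ratio of at least 12.3 rested on replicate 1. Relative to the microglial markers the differences were 0.32 for Il1a, 0.40 for Il1b, 1.75 for Tnf (FDR 0.0807) and −0.09 for Il6. Set against Cell-TRAP (+) Inhibitors, 1 of 6 was called (29.1% of genes called), Il10, at 13 counts against 2 (20.3-fold, 4.60 to 186) and again from replicate 1. Il1a was lower by 0.85 (SE 0.241, FDR 0.00627), under 2-fold but with no overlap, Il1b differed by −0.05 with an interval of −1.42 to 1.32, and Tnf by −0.76 with −1.92 to 0.41, or −2.48 (FDR 0.00059) without Dounce-TRAP replicate 4.

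Il1b in the Dounce-Input did not follow the other cytokines. It was at 8.98, 10.1, 4.98 and 4.44 CPM, above Dounce-TRAP in all 4 mice (TRAP against Input −0.80, SE 0.583, FDR 0.225 in edgeR, and −1.95, FDR 0.0348 in limma on the authors' log2 values, which called it), while Il1a was at 6.197, 1.74, 0.767 and 4.61 CPM and Tnf had 4 counts, all in replicate 1. The counts of Il1b to Il1a within a library were 0.963 to 6.50 in Dounce-Input and 0 to 0.234 in Dounce-TRAP, against 0.617 to 0.817 and 0.260 to 0.843 in Cell (−) Inhibitors. Markers of monocytes and neutrophils, which carry Il1b mRNA in blood, summed to 421 to 1790 CPM in Dounce-Input, 89.5 to 174 in Dounce-TRAP, 41.2 to 135 in Cell-Input (−) Inhibitors and 14.8 to 19.9 in Cell-TRAP (−) Inhibitors, with all 10 markers detected in these groups, and their part in the Il1b level was not tested. Lymphocyte markers were at 42.9 to 63.3 CPM in Dounce-Input, and microglial markers at 2515 to 3913 CPM, against 62057 to 70043 CPM in Dounce-TRAP.

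**Figure D5:**
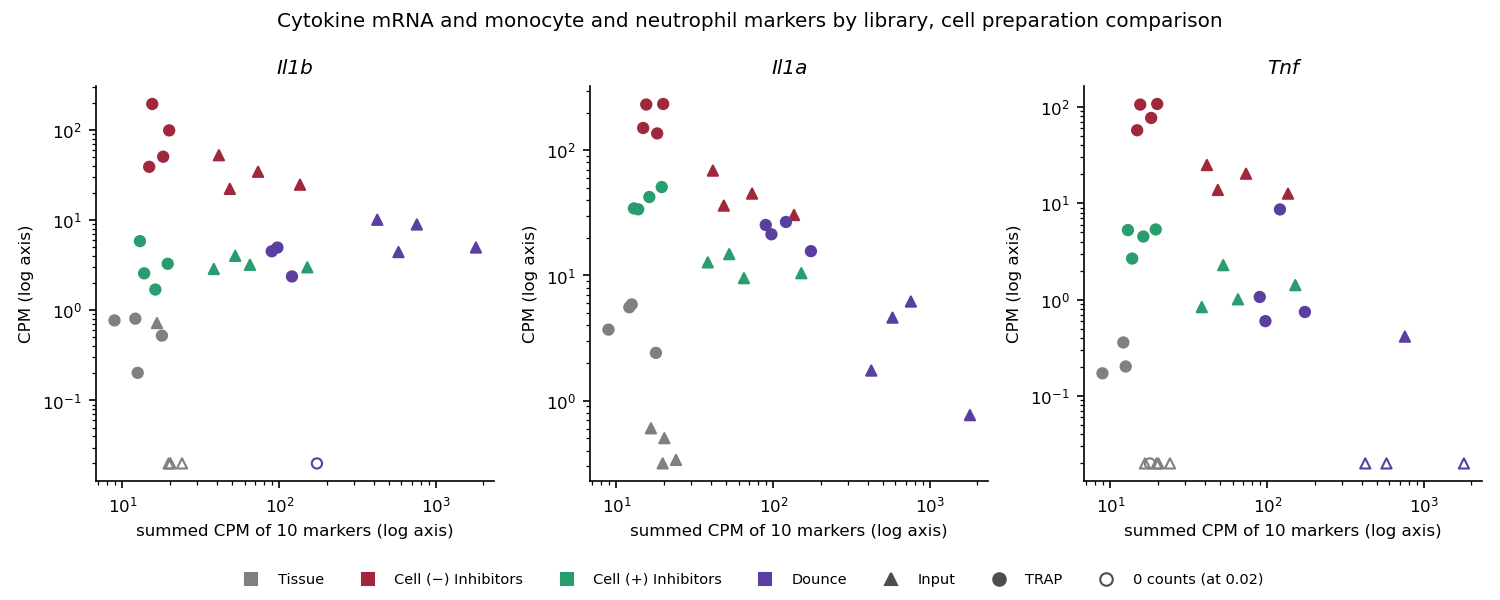
Il1b, Il1a and Tnf (CPM scaled within TRAP or Input) in each library of the cell preparation comparison against the summed CPM of 10 monocyte and neutrophil markers (scaled over both), both on log axes, with libraries at no count drawn at 0.02. The 4 Dounce-Input libraries lie farthest to the right (421 to 1790) with Il1b at 4.44 to 10.1 CPM, and the Cell (−) Inhibitors TRAP libraries, highest in Il1b at 39.2 to 196 CPM, lie at 14.8 to 19.9.

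In the Input of the preparation comparison Il1a, Il1b, Tnf and Il6 had enough counts to test, and Tissue was the lowest. Cell-Input (−) Inhibitors against Tissue-Input had 4 of 4 tested members called (44.7% of genes called), with log2 fold changes of 6.65 for Il1a and 7.56 for Il1b, at least 219-fold for Tnf and a ratio of 34.6 (9.24 to 291) for Il6. Dounce-Input against Tissue-Input also had 4 of 4 called (50.1% of genes called), 2.94 for Il1a, 5.37 for Il1b, a ratio of 11.4 (2.75 to 101) for Il6 and at least 1.60-fold for Tnf, whose 4 counts in 1 library carry the call. Relative to the microglial markers only Il1b was still called in that comparison, at 2.77 (FDR 0.00086).

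Scaled to all genes, Il1a, Tnf and Il6 were higher in TRAP than in Input in all 3 dissociated preparations, and Il1b in 1 of them. In Dounce 5 of 6 genes were called (47.5% of genes called), among them Il1a at 3.06 (SE 0.357), Tnf at 4.56 (SE 0.934) and Il6 at 2.57 (SE 0.603). With the mouse as a block, in which 2 of the 6 passed the filter on low counts, Il1a was the 1 gene called. In Cell (−) Inhibitors 6 of 6 were called (47.3%), from 1.55 for Il1b to 2.57 for Il10. The Il1b call was lost in limma (1.48, FDR 0.11) and without Cell-TRAP (−) Inhibitors replicate 4 (0.94), and the Il10 call in DESeq2 (FDR 0.164). In Cell (+) Inhibitors 3 of 6 were called (45.6%), Il1a at 1.78 (SE 0.286), Tnf at 1.69 (SE 0.479) and Il6 at 1.99 (SE 0.499), and Il1b was at 0.06 (SE 0.509, FDR 0.933). Relative to the microglial markers, 3 genes were called lower in TRAP than in Input in Dounce. These were Il1b by 5.11, Il6 by 1.63 (FDR 0.0171) and Il1a by 1.13 (FDR 0.00274), while Tnf, at 0.49, was not called. The marker scaling lowered the members in Dounce by a median of 4.12, and the median of all genes was −0.21 before it. Lower values on this scale are therefore not particular to these genes. In Cell (+) Inhibitors Il1b was lower by 2.20, and Il10 by 2.98 (FDR 0.058) and Tnfsf18 by 2.10 (FDR 0.0432) on few counts. In Cell (−) Inhibitors none of the 6 was called.

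The genes around these cytokines, grouped by pathway, were examined in the same fits. In Cell-TRAP against Tissue-TRAP, 17 of 21 tested genes of the IL-1 system rose and none fell (median log2 fold change 1.98, against −0.01 over all genes tested, of which 25.1% rose), 11 of 15 of the TNF and GITR system rose (2.20) and 15 of 15 of IL-6 and IL-10 signalling rose (2.23). The 20 microglial markers, 19 of which rose, had a median of 2.29, so the medians of these receptor and adaptor lists lay near that of microglial RNA. Individual genes stood well above it. Tnfaip3, the A20 protein that limits NF-κB signalling, rose from 6.26 to 9.57 CPM to 193 to 342 CPM (5.02, SE 0.279). Socs3, the feedback inhibitor of IL-6 signalling, rose by 6.57 (SE 0.186). Nlrp3, the inflammasome sensor, rose by 3.42 (SE 0.244) and Il1rl2, the IL-36 receptor, by 3.64 (SE 0.303), while Irak4, the kinase below the IL-1 receptor, at 2.58 (SE 0.103), was close to the microglial median.

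Among the receptors and sheddases, Il6ra (3.596, SE 0.0926), Il10ra (3.19, SE 0.106) and Tnfrsf1b (3.19, SE 0.0835) rose, as did Adam17, which sheds TNF from the membrane (3.28, SE 0.0861), its partner Rhbdf2 (2.71, SE 0.132) and Adam10 (2.84, SE 0.0705). Il18rap had 24 counts in Cell-TRAP and 2 in Tissue-TRAP. Of 19 other cytokine ligands tested 15 rose and 3 fell (median 1.81). Osm, an IL-6 family cytokine, rose by 4.84 (SE 0.252) and Clcf1 by 3.72 (SE 0.208), Tnfsf14 had 32 counts against 0, and Il34, the neuronal ligand of the CSF1 receptor, fell by 3.39 on the log2 scale. Of 19 genes of cytokine transcription and mRNA decay 14 rose (median 2.30). Zfp36, which encodes tristetraprolin, rose from 10.1 to 15.5 CPM to 2423 to 3262 CPM (7.79, SE 0.165), Nfkbiz by 6.78 (SE 0.437), Nfkbid by 5.78 (SE 0.426) and Rel, an NF-κB subunit, by 4.89 (SE 0.280).

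With the inhibitors 10 genes of these 5 lists were called in TRAP, all lower. No gene of 21 in the IL-1 system was called, 1 of 15 in the TNF and GITR system fell (Tnfaip3, −2.68, SE 0.179), 1 of 15 in IL-6 and IL-10 signalling fell (Socs3, −4.18, SE 0.175) and 1 of 21 other ligands fell (Osm, −1.70, SE 0.285). Of 19 genes of transcription and mRNA decay 7 fell, with a median of −0.24 over the list against −0.03 over all genes. Zfp36 fell to 131 to 173 CPM (−4.69, SE 0.177), Nfkbiz by 4.44, Nfkbid by 4.38 and Nfkbia by 2.25 on the log2 scale. The 20 microglial markers had a median of 0.07 and none was called. In Dounce-TRAP against Cell-TRAP (−) Inhibitors 8 of the 19 fell and 1 rose (median −0.91), where 8.04% of all genes fell and 20.7% rose (median −0.01).

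The genes whose levels most resembled each cytokine over the 16 TRAP libraries of the preparation comparison were ranked by Pearson's r of log2 CPM among 14166 genes, as a description of libraries that share mice, preparations and depth. For Il1a they were Dusp6, Tnfaip3 and Klf6 (r 0.97 to 0.98, and 0.96 to 0.99 over the 24 TRAP libraries of the sort comparison). For Il1b they were Ccrl2, Csrnp1 and Socs3 (0.96 to 0.98) and for Tnf Atf3, Zfp36 and Socs3 (0.97). Il6 had other neighbors, Ilvbl, Lpxn and Pnp (0.94). Il10 was closest to Junb, Hist1h1c and Jun (0.89) and Tnfsf18, with few counts, to 1810011O10Rik, Csrnp1 and Cxcl2 (0.83).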

How the data were processed

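RNA was sequenced as stranded poly(A) libraries. The authors trimmed the reads, aligned them to mm10 with strand taken into account, removed duplicates and deposited expected counts per gene, estimates that need not be whole numbers (33.24% and 20.76% of values were whole in the 2 tables). The authors also deposited log2 values, normalized with DESeq2 and set relative to the median of Tissue-Input, and kept genes with more than 5 reads in all samples of at least 1 group. An earlier table (24 libraries, 15535 genes) served as an alternative. No column lacked a sample, and 23 symbols that a spreadsheet had turned into dates were restored by Entrez ID.

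Expected counts were rounded and tested in edgeR 4.0.16 (R 4.3.3, TMM, quasi-likelihood) over all genes with more than 5 counts in every library of at least 1 group, TRAP and Input separately or together for TRAP against Input. A gene counted as called when its Benjamini-Hochberg FDR was below 0.1 with more than a 2-fold change. The SE is the log2 fold change over the root of F. Where a group held 3 counts or fewer, ratios of summed counts are given with 95% intervals, and groups at 0 were set to a floor of 3 counts over the group, and these cover counting error only. Levels are CPM, TMM-scaled within TRAP or Input, and marker sums within both together. The 6 genes, the gene lists and the rule for named genes (the 4 largest called changes of a list) were chosen with earlier results of these data known. The scripts were tested on simulated data. Replicates of a preparation are separate animals, but the 16 sorted libraries of each fraction came from 10 mice. The smallest chi-square per degree of freedom between replicates was 3.54 and 3.67 in the 2 tables. Titles pair Tissue with Cell, Cell (−) with Cell (+) Inhibitors, and TRAP with Input by mouse. Deviations from the group mean correlated at 0.072 to 0.173, 0.15 to 0.496 and, in Cell, 0.352 to 0.44 in TRAP or across fractions of the same mouse. Alternatives were DESeq2 1.42.0 (size factors or Wald test), limma 3.58.1 on the deposited log2 values, scaling to 20 microglial markers, no filter, the replicate block, the earlier table, leaving out each library and, chosen after seeing the data, limma with a correlation within mouse for the sorted libraries.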

Additional observations from a re-analysis of the deposited data

Results flagged for a closer look

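In 16 of 94 groups of 4 or 5 libraries 1 library lay far from the others by Dixon's test. Its cutoff would flag about 1 group in 20 for normally distributed values, which CPM near 0 are not. A group with counts in 1 library only is always flagged, so that rate is no measure for the flagged groups. Of the cell preparation comparison these were Tnfsf18 in Cell-Input (+) Inhibitors replicate 4 (1.14 CPM, next 0.183), Tnf in Dounce-Input replicate 1 (0.413, next 0) and Dounce-TRAP replicate 4 (8.62, next 1.07), Il10 in Dounce-TRAP replicate 1 (3.46, next 0), Il1b in Tissue-Input replicate 2 (0.723, next 0) and Il6 in Tissue-TRAP replicate 3 (1.72, next 0.516).

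In the sort comparison Cell-TRAP replicate 1 was high for Il10 (7.85 CPM, next 3.04), Il1a (246.5, next 138.8) and Tnf (206.6, next 74.4), and the Input of that sample for Tnf (36.1, next 16.1). Replicate 3 of autoMACS-Input was high for Il1b (314, next 118.5) and Tnf (235, next 99.9), and its TRAP library for Il1b (115, next 63.8). The others were Il6 in autoMACS-TRAP replicate 4 (13.6, next 7.44), Tnfsf18 in FACSAria-Input replicate 1 (3.08, next 2.25) and Tnf in Tissue-Input replicate 2 (0.516, next 0.0481).

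The change of Il1a from Tissue to Cell differed between TRAP and Input by −1.12 on the log2 scale (edgeR, FDR 0.092).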

How the results depend on the processing

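With size factors from DESeq2 and without the filter, the number of called cytokines stayed within 1.5 times the main count in all 24 comparisons. Scaling to the 20 microglial markers lowered it from 6 to 0 in Sort-Input against Cell-Input and in TRAP against Input in Cell (−) Inhibitors, from 6 to 1 in TRAP against Input in Cell, from 4 to 1 in Cell-TRAP (+) Inhibitors against Tissue-TRAP and in Dounce-Input against Tissue-Input, from 6 to 2 in Dounce-TRAP against Tissue-TRAP and from 5 to 3 in TRAP against Input in Dounce, and raised it from 1 to 2 in the interaction of Cell against Tissue with TRAP. These are the changes of over 1.5 times, and smaller ones are left out. The 1 called in Cell and the 3 called in Dounce were lower in TRAP, where the main calls were higher. In TRAP against Input in Cell (+) Inhibitors the number stayed at 3. There Il1b, Il10 and Tnfsf18 were called lower, in place of Il1a, Tnf and Il6 higher. In Tissue it went from 2, both higher in TRAP, to 3, all lower. Under this scaling the number of all genes called was over 1.5 times the main count in 14 comparisons, within 1.5 times in 9 and lower in 1. The DESeq2 Wald test gave 3 in place of 5 for the inhibitors in TRAP and 0 in place of 1 for Dounce-TRAP against Cell-TRAP (+) Inhibitors, and limma gave 3 in place of 6 for Dounce-TRAP against Tissue-TRAP. With the replicate block TRAP against Input in Dounce gave 1 in place of 5, and all genes called went from 94 to 150 for the inhibitors and from 2994 to 1409 for TRAP against Input in Sort, and the block changed no other count of cytokines by over 1.5 times. For the sorted libraries, limma with a correlation within mouse, chosen after seeing the data, gave the same number of called cytokines in all 5 comparisons it was run on. In the table without Dounce, 45 genes in place of 23 were called for the interaction with the inhibitors.

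The direction turned under microglial scaling for Tnf (−0.27) and Il6 (−0.43) in Sort-Input against Cell-Input and Il6 (−0.09) in Dounce-TRAP against Tissue-TRAP, and for TRAP against Input in Tissue (Il1a −1.16, Il1b −3.63, Tnf −3.76, Il6 −1.31), Cell (Il1a −0.5, Il1b −1.2, Tnf −0.14, Il6 −0.4), Dounce (Il1a −1.13, Il6 −1.63), Cell (−) Inhibitors (Il1a −0.25, Il1b −0.78, Tnf −0.04, Il6 −0.66, Tnfsf18 −0.45) and Cell (+) Inhibitors (Il1a −0.49, Il1b −2.2, Tnf −0.53, Il6 −0.31), and for Il1a in the interaction (0.66). These shifts follow from the scaling itself, which sets the rise of microglial RNA to 0.

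Leaving out 1 library gave 4 to 5 called cytokines for the inhibitors in TRAP and for Dounce-TRAP against Cell-TRAP (−) Inhibitors, 5 to 6 for Dounce-TRAP against Tissue-TRAP, 0 to 2 for Dounce-TRAP against Cell-TRAP (+) Inhibitors, 3 to 4 for Dounce-Input against Tissue-Input, 4 to 5 for TRAP against Input in Dounce, 4 to 6 in Cell (−) Inhibitors and 0 to 1 for the interaction in the sort comparison, and in the other 16 comparisons no change. Without Dounce-TRAP replicate 1, the only Dounce library with Il10, the fitted Il10 value was 0.0 against Tissue-TRAP and against Input and −2.15 against Cell-TRAP (+) Inhibitors, where leaving out other libraries gave up to 6.66, 6.67 and 6.09. Without Dounce-Input replicate 1 that of Tnf against Tissue-Input was 0.0, and up to 3.91 without others. Il10, Tnfsf18 and Tnf in Dounce and Tissue rest on few counts, so their levels there are limited by depth.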
